A study of Mus musculus with 4 samples.

Results

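The MS4A genes encode small membrane proteins that cross the membrane 4 times, and most of the mouse family lies side by side in 1 cluster on chromosome 19. The best known are Ms4a1, which encodes the B cell antigen CD20, and Ms4a2, the beta chain of the high-affinity IgE receptor of mast cells and basophils. Others are made by macrophages and microglia, and in humans variation at the MS4A cluster has been linked to the amount of soluble TREM2, the shed form of a lipid receptor of microglia. Ms4a7 is also used to tell macrophages at the borders of the brain, and brain macrophages that come from bone marrow, from resident microglia.

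The genes described here are 10 named MS4A genes among the 56832 genes listed for each library: Ms4a1, Ms4a2, Ms4a4a, Ms4a4b, Ms4a4c, Ms4a4d, Ms4a6b, Ms4a6c, Ms4a6d and Ms4a7. They were taken by symbol, and all 10 were found. RNA was sequenced in 4 libraries of microglia, the macrophages of the brain, from C57BL/6 mice labelled female. The cells grew in primary glial culture without any treatment that the labels name, were released with trypsin and were collected by fluorescence-activated sorting; no label gives the antibodies, the gates or the ages of the animals. These cells serve in the series as the endogenous counterpart of blood progenitors kept with glia, groups that were not analysed here. The 4 libraries form 1 group, so no treatment or cell type could be compared. No label ties them to separate cultures or animals, so an SD or a p-value here describes how far 4 libraries differ, in part perhaps for technical reasons.

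Libraries held 23212183 to 28469813 gene counts, and the MS4A members took 0.0934% ± 0.00616 (SD, n = 4) of them. The defining microglial genes Fcrls and Csf1r were at 5298 and 2805 TPM (counts divided by exon length and scaled to the same total in each library) in the mean. In the list of 14 microglial genes 12 reached 1 CPM in all libraries, beside 51.4% of protein-coding genes and 20.6% of all listed genes. Siglech (0.674 TPM ± 0.482, SD, n = 4) and Crybb1 (0.886 ± 0.304) did not. Xist, from the inactive X chromosome, was at 253 to 341 CPM (counts scaled to the same library total, without length), but the Y-linked gene Ddx3y was also present in every library, at 30.03 to 41.5 CPM, which goes against the label of sex. Replicate 1 stood apart in rapidly induced genes and in genes of astrocytes, the main other glial cell of such cultures. The 15 immediate-early genes summed to 2360 CPM there and to 1468 to 1747 CPM in the other libraries, and 12 astrocyte genes summed to 325 CPM there and to 442 to 548 CPM elsewhere. List genes with a spread past the edgeR test described below were P2ry12 and Sparc (microglia), Gfap, Slc1a3 and Clu (astrocytes), Acta2 (smooth muscle) and the immediate-early genes Fos, Fosb, Jun, Junb, Egr1, Egr2, Ier2, Ier3, Dusp1 and Zfp36.

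Promoter windows show how closely some members are related. They are shown for Ms4a7, the most abundant member, and for Ms4a6b and Ms4a6c, close copies that differed in level. RefSeq windows on GRCm38.p6, a build other than the one the authors aligned to, were matched by symbol for 8 of the 10 members, all but Ms4a1 and Ms4a6d. Each runs from 250 bases before to 50 bases after a transcription start, 5′ to 3′ on the gene's strand. Capitals mark GGAAGT or its reverse complement ACTTCC, the core of sites bound by ETS factors such as PU.1, the main transcription factor of macrophages.
Ms4a7 (chr19:11336097-11336396, minus strand): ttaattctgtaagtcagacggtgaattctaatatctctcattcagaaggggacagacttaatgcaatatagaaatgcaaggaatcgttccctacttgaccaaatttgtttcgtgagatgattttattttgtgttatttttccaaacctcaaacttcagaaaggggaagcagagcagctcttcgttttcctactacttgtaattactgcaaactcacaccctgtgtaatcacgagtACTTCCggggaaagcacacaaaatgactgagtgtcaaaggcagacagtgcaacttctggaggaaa
Ms4a6b (chr19:11518309-11518608, plus strand): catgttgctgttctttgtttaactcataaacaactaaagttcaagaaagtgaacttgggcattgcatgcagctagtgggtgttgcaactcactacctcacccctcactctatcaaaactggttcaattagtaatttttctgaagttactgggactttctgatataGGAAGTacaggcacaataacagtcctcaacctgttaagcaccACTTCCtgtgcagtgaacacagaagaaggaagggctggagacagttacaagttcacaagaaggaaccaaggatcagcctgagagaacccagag
Ms4a6c (chr19:11469118-11469417, plus strand): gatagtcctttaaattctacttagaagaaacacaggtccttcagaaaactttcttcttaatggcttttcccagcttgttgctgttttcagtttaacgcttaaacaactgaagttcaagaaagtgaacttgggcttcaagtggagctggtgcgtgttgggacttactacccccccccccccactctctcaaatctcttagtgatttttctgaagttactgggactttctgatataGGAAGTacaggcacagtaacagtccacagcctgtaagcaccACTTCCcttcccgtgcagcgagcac

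The windows of Ms4a6b and Ms4a6c aligned over 218 bases with 86.2% identity. Their longest identical run was 48 bases, and it holds 1 of the capital matches:
shared by Ms4a6b and Ms4a6c: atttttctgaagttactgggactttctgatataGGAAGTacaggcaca
The windows of Ms4a4b and Ms4a4c aligned over 182 bases with 89.01% identity. The letters GGAAGT, on either strand, were in the windows of 6 of the 8 genes (Ms4a4b, Ms4a4c, Ms4a4d, Ms4a6b, Ms4a6c and Ms4a7). By window this was 6 of 9, beside 23.8% of all 32851 windows, and windows that are close copies are not independent cases. For Ms4a7 the letters were in the window shown and not in that of its second start. Ms4a4d held 3 matches and had no counts in any library. Of other MS4A genes without counts, Ms4a3, Ms4a12 and Ms4a19 also held matches, while Ms4a2, Ms4a5, Ms4a10, Ms4a13, Ms4a15 and Ms4a18 held none. The first bases after the start in the windows of Ms4a4a and Ms4a4d were in no GENCODE M21 transcript of those genes. The letters TGANTCA, a looser pattern that takes in the core of AP-1 sites, were, on either strand, in a window of Ms4a4b and the other window of Ms4a7, and in 7.81% of all windows; neither member match reads as the AP-1 core itself. The pattern GAAA, any 2 bases, GAAA, found in elements that respond to interferon, was in 0 of the 9 member windows and in 3.44% of all windows, on either strand. The GGAAGT matches overlapped neither of the other motifs. In coding sequence Ms4a4b and Ms4a4c were 91.7% identical over their aligned bases, Ms4a4c and Ms4a4d 86.1%, Ms4a6b and Ms4a6c 85.4%, Ms4a4b and Ms4a4d 83.8%, and Ms4a6b and Ms4a6d 81.2%. The promoter window of Ms4a4d, unlike its coding sequence, aligned with that of Ms4a4c over 14 bases only. Because the first bases after its start were in no annotated transcript, this window may not correspond to that of Ms4a4c. Ms4a7 was at most 63.99% identical to any other member.

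Ms4a7 and the 3 Ms4a6 genes were abundant. Ms4a4c and Ms4a4a were low, and Ms4a4b, Ms4a4d, the B cell gene Ms4a1 and the mast cell gene Ms4a2 were at or near 0. Of the 10 members, 5 (Ms4a7, Ms4a6d, Ms4a6c, Ms4a6b and Ms4a4c) reached 1 CPM in all 4 libraries, beside 20.6% of all listed genes and 51.4% of protein-coding genes. The median member was at 4.86 TPM ± 1.47 (SD, n = 4), beside 1.58 ± 0.115 for the median protein-coding gene. Because this is bulk RNA, a low level from fewer cells of a type and one from less RNA per cell cannot be told apart.

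**Figure D1:**
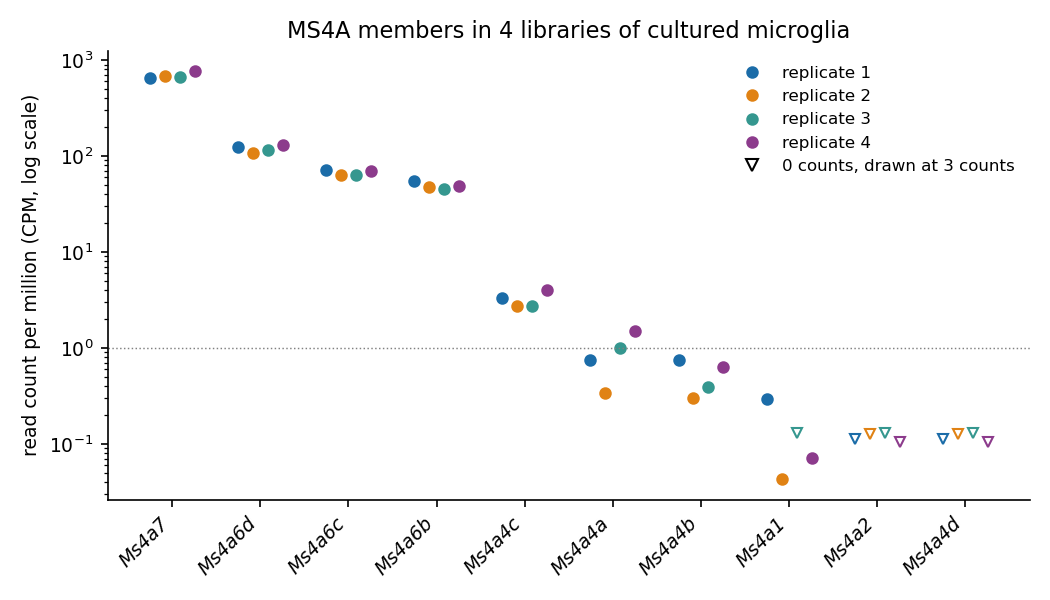
Level of each MS4A member in each library (CPM on a log axis; 1 point per library, coloured by replicate; open triangles are counts of 0, drawn at the level of 3 counts; the dotted line is 1 CPM). Ms4a7 sits between 651 and 769 CPM in all libraries, and the open triangles of Ms4a2 and Ms4a4d lie at 0.105 to 0.129 CPM.

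Ms4a7 was the highest member. It was at 498, 517, 499.5 and 576 TPM in replicates 1 to 4, from 15423 to 21888 counts. The mean, 523 TPM ± 36.8 (SD, n = 4), placed it at rank 245 of 21593 protein-coding genes. Replicate 4 was highest and the other libraries lay close together. Per length, Ms4a7 held 57.3% ± 1.98 of the summed level of the members, and by counts alone 74.1% ± 1.64.

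Ms4a6d, whose protein has been described with the complement receptor Vsig4 in macrophages, came second. Its level was 245.5, 210.2, 225 and 252 TPM in replicates 1 to 4, with a mean of 233 ± 19.3 (SD, n = 4). The ratio of Ms4a7 to Ms4a6d in TPM was 2.03 in replicate 1 and 2.46, 2.22 and 2.28 in replicates 2 to 4, so Ms4a7 was higher in all 4 libraries and the ranges did not overlap. The size of this ratio depends on the lengths: its mean was 2.25 ± 0.177, but 5.77 ± 0.456 by counts without length and 5.46 ± 0.431 with the median length of coding transcripts, a setting chosen after seeing the data. Ms4a6d was lowest in replicate 2 and highest in replicate 4. Vsig4 itself had 0 counts in every library.

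Ms4a6c was at 119, 104, 103 and 114 TPM in replicates 1 to 4 (mean 110.01 ± 7.85, SD, n = 4). Ms4a6b was at 41.3, 35.5, 33.6 and 36.7 TPM in replicates 1 to 4 (mean 36.8 ± 3.27). Both genes were highest in replicate 1 and lowest in replicate 3. Although their promoters and coding sequences are close copies, the level of Ms4a6c was 2.88 to 3.11 times that of Ms4a6b per length, a ratio close to the same in each library (mean 2.996 ± 0.109). By counts without length the ratio was 1.37 ± 0.0497, and with the median length of coding transcripts, where Ms4a6c was at 53.8 TPM, it was 1.62 ± 0.0589. The annotated lengths are 2050 exon bases for Ms4a6c and 4485 for Ms4a6b.

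The level of Ms4a6c carries a particular limit. In GENCODE M21, exons of BE692007, a noncoding gene on the opposite strand, cover 53.1% of its exon bases, and no label says whether the counting used strand. Words in the names of the deposited files may stand for a strict overlap rule and for counting without strand, but no source used here explains them. BE692007 was listed with 1626 counts in all, against 6885 for Ms4a6c. If every read over the covered bases had been set aside as ambiguous, the level of Ms4a6c would be 234 TPM ± 16.7, next to the 233 of Ms4a6d and 6.38 ± 0.232 times that of Ms4a6b. The levels of these genes cannot be told apart on that reading, and Ms4a7 lies above both. That length was chosen after seeing the data. Sequence shared with other transcripts was small for the remaining abundant members, at 0.306% of the 50-base stretches of Ms4a7, 2.54% of those of Ms4a6d and 3.57% of those of Ms4a6b.

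The 4 Ms4a4 genes together reached 9.91 TPM ± 2.98 (SD, n = 4), beside 380.05 ± 28.7 for the 3 Ms4a6 genes. Ms4a4c was at 6.41, 5.22, 5.19 and 7.63 TPM in replicates 1 to 4, from 63 to 114 counts. Ms4a4a, whose protein binds the fungal receptor dectin-1 in macrophages, was at 3.02, 1.37, 3.97 and 6.03 TPM in replicates 1 to 4, from 20, 8, 23 and 43 counts. Its highest library lay above the lowest ones of Ms4a4c, so these neighbours did not separate beyond their spread, although Ms4a4c was higher in 4 of 4 libraries. The counts of Ms4a4a correspond to 0.341 CPM in replicate 2, with an exact Poisson 95% interval of 0.147 to 0.673 CPM, and to 1.51 CPM in replicate 4, with an interval of 1.09 to 2.03 CPM; the intervals cover counting error only. The partner gene of Ms4a4a, Clec7a, which encodes dectin-1, was at 109 TPM ± 7.23.

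Ms4a4b, best known from T cells, was lower still, at 0.287, 0.114, 0.148 and 0.240 TPM in replicates 1 to 4, from 20, 7, 9 and 18 counts. In TPM its range did not overlap that of Ms4a4a, but by counts both had 20 in replicate 1; the annotated exons span 836 bases in Ms4a4a and 8780 in Ms4a4b. In TPM its range overlapped that of Ms4a1, although Ms4a4b was higher in 4 of 4 libraries. Sequence shared with relatives bears on these low values: 8.19% of the 50-base stretches of Ms4a4c also occur in Ms4a4b or Ms4a4d. Ms4a4d had no count in any of the 4 libraries. Taking 3 counts as the limit, a level of up to 0.105 to 0.129 CPM by library, or 0.0294 CPM over all of them, could have gone unseen.

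Ms4a1 had 8, 1, 0 and 2 counts in replicates 1 to 4, a total of 11 and a pooled level of 0.108 CPM (exact Poisson 95% interval 0.0538 to 0.193). Most of these counts came from replicate 1. The list of 12 B cell genes summed to 6.51 to 9.48 CPM, mostly from Bank1 (2.25 TPM ± 0.420, SD, n = 4) and Cd22 (1.44 ± 0.252), while the defining gene Pax5 had 0 counts and Cd79b had 19. Ms4a2 had 0 counts in all 4 libraries, with the same limits as Ms4a4d. The other chains of the IgE receptor were split: Fcer1a, the chain that binds IgE, also had 0 counts, and Fcer1g, the signalling chain that other receptors of myeloid cells share, was at 2798 TPM ± 96.4. Of 12 mast cell and basophil genes, 8 had 0 counts in every library, among them Cpa3, Mcpt4, Cma1 and Tpsb2, and the list summed to 7.07 to 9.55 CPM, led by Il1rl1 (2.84 TPM ± 0.450), Kit (0.613 ± 0.209) and Hdc (0.323 ± 0.121). In the list of 14 T and NK cell genes 9 had 0 counts, Cd3d and Cd3g among them, and Cd5 (4.40 TPM ± 0.370), followed by Lck (0.275 ± 0.0983) and Cd6 (0.0373 ± 0.0462), held most of the sum of 6.18 to 7.54 CPM. Cd3e had a count in replicate 2 only, at 0.0427 CPM. As background to these counts of genes at 0, 34678 of 56832 listed genes had 0 counts in every library. Among protein-coding genes 6216 of 21593 did. The part of such cells in the low values of Ms4a1 and Ms4a4b was not tested.

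Position within the cluster was described from the order of genes in GENCODE M21. The more abundant MS4A genes lay on 2 stretches. Ms4a7 and its neighbour Ms4a14 formed the first, and Ms4a6c, Ms4a6b and Ms4a6d formed the second, with Ms4a4d, at 0 counts, between the last pair. Between the stretches lay Ms4a4a, Ms4a4c and Ms4a4b. Ms4a14 is not among the named members. It was at 45.8, 35.04, 35.1 and 42.6 TPM in replicates 1 to 4 (mean 39.6 ± 5.41, SD, n = 4), close to Ms4a6b, and its transcript shared no 50-base stretch with another gene. The ratio of Ms4a7 to Ms4a14 was 10.9 to 14.7 in TPM.

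The remaining MS4A genes of the cluster were at or near 0. Ms4a3, a gene of granulocyte and monocyte progenitors, and Ms4a5, Ms4a10, Ms4a12, Ms4a13, Ms4a15, Ms4a18, Ms4a19 and Ms4a20 had 0 counts in all libraries, and Ms4a8a had 2 counts, both in replicate 1. Beyond the cluster's ends, Tmem109 (116 TPM ± 5.81), Prpf19 (65.3 ± 3.09) and Ccdc86 (16.3 ± 0.752) were present on one side, where Zp1 had 0 counts and Ptgdr2 had 5, and Oosp1, Oosp2 and Oosp3 on the other side had 0 counts. Within it, the noncoding gene AW112010 was at 33.9 TPM ± 5.91, the protein-coding gene Gm8369 at 0.431 ± 0.216 and the pseudogene Gm6501 at 1.13 ± 0.868. The MS4A-like genes Tmem176a and Tmem176b, which lie as a pair on another chromosome and are known from dendritic cells and macrophages, were at 499 TPM ± 18.5 and 1322 ± 84.4. Tmem176b was thus above every MS4A member, and Tmem176a overlapped Ms4a7 in range. Tmem212, on the same list of related genes, had 5 counts.

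**Figure D2:**
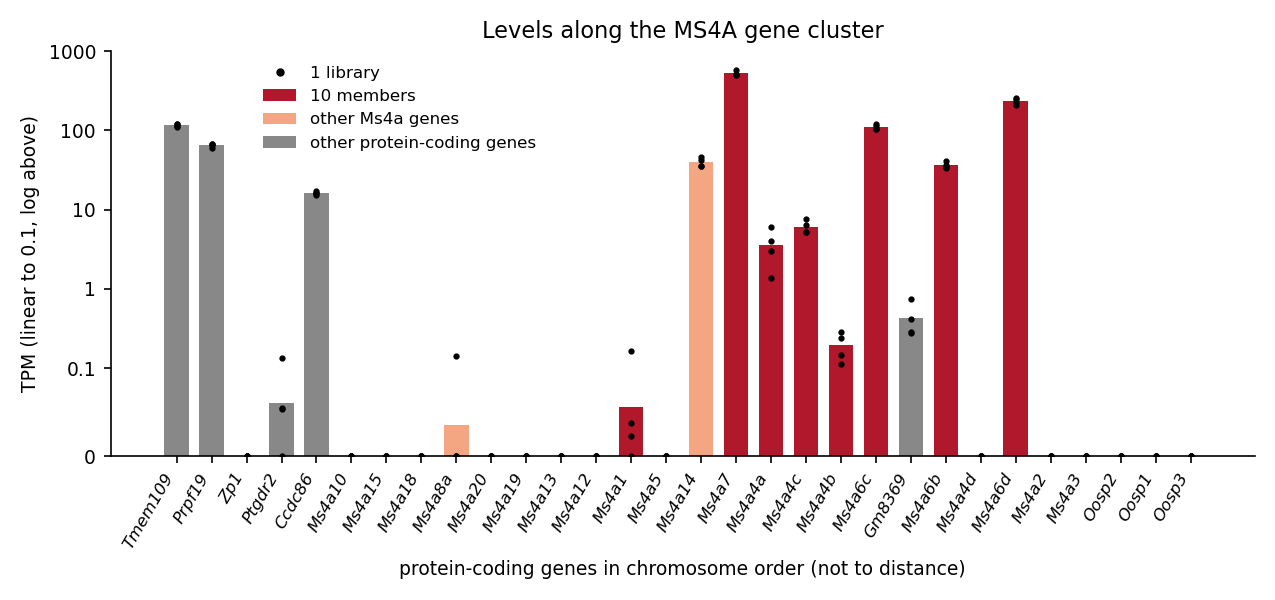
TPM of protein-coding genes in their order along the MS4A cluster and 5 annotated genes to either side (bars, mean of 4 libraries; points, libraries; axis linear up to 0.1 and logarithmic above; spacing does not show distance). The tallest bars inside the cluster belong to Ms4a14, Ms4a7, Ms4a6c, Ms4a6b and Ms4a6d.

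Trem2 binds lipids and signals through Tyrobp (DAP12) and the kinase Syk. All 22 genes listed for this pathway reached 1 CPM in each library, beside 51.4% of protein-coding genes and 20.6% of all listed genes. Their median was 342 TPM ± 13.6 (SD, n = 4). The highest were the lipid carrier Apoe (49645 ± 1678), Tyrobp (4631 ± 358), Fcer1g, the growth factor Grn (1313 ± 67.6), the phosphatase Ptpn6 (782 ± 20.8) and Trem2 itself (771.5 ± 13.4), and 0 of the 22 passed the test of spread described below (edgeR, 1.11% of all tested genes did). The lowest were the adaptor Hcst (35.6 ± 6.81) and the kinases Btk (98.8 ± 1.75) and Syk (103 ± 3.03). Trem2 was at 758, 789, 766 and 773 TPM in replicates 1 to 4. Per length, the level of Ms4a7 was 0.657, 0.655, 0.652 and 0.746 times that of Trem2, and that of Ms4a6d was 0.303 ± 0.0285 times. In the list of 8 partner proteins of the family, 6 reached 1 CPM in all libraries, beside the same 51.4% of protein-coding genes. Among these 6 was the kinase Lyn (361 ± 25.2). Ms4a7 lay below Trem2 in 4 of 4 libraries, and by counts without length the ratio was 0.610 ± 0.0410. With the median length of coding transcripts the mean of Ms4a7 was 923 TPM; the ratio to Trem2 was not computed with those lengths.

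**Figure D3:**
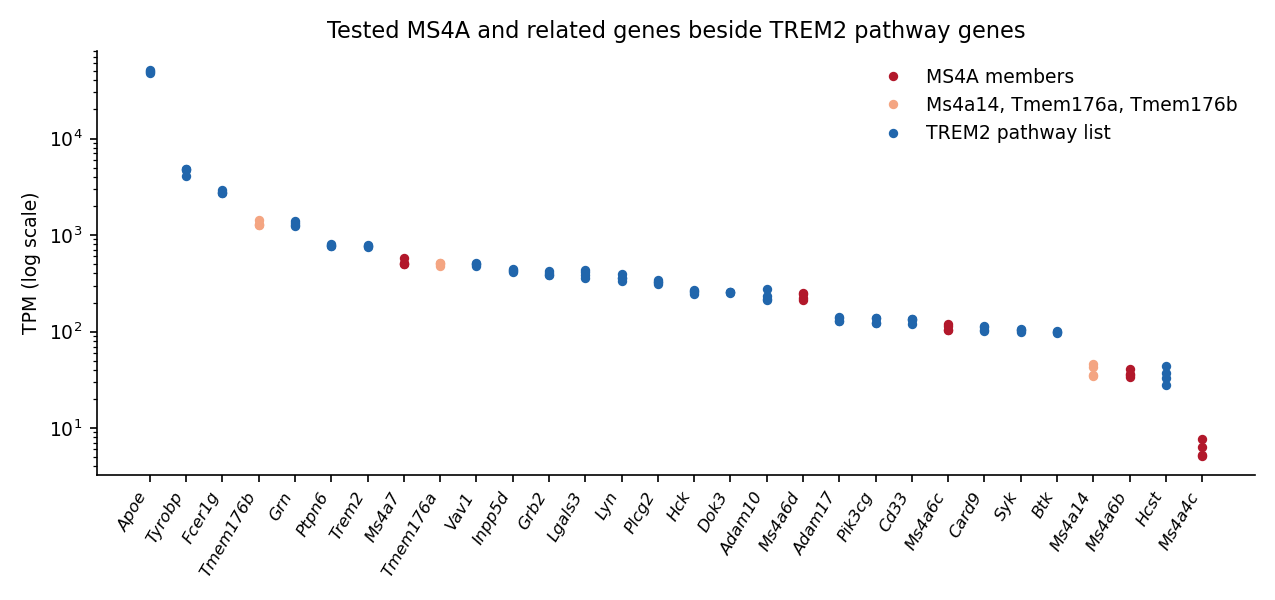
TPM on a log axis, 1 point per library, for the tested MS4A members (red), 3 related genes (orange) and 22 TREM2 pathway genes (blue), ordered by mean. Ms4a7 lies just below Trem2, while Ms4a4c, at 5.19 to 7.63 TPM, lies below all genes of the pathway list.

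Since Ms4a7 marks border macrophages, and Ms4a4c and Ms4a6c occur in monocytes, markers of those cells were set beside them. Of 15 genes of border and other tissue macrophages, 8 reached 1 CPM in all libraries, close to the share of protein-coding genes that did (51.4%). That share is the background for each such count below. The median of the border list was 4.37 TPM ± 1.11 (SD, n = 4). The highest were Stab1 (745 TPM ± 50.4), Pf4 (306 ± 14.3) and Mrc1 (292 ± 30.6), while Cd163 and Lyve1 had 0 counts; the list summed to 3564 to 3845 CPM. In the list of 14 monocyte genes, 4 reached 1 CPM in all libraries, led by S100a4 (64.6 TPM ± 17.4), Fn1 (56.6 ± 6.91) and Itgal (41.6 ± 5.53). Ccr2, a chemokine receptor that defines classical monocytes, also reached 1 CPM in all libraries, with 41 to 59 counts or 1.51 to 2.52 CPM, and Ly6c2, Plac8 and Chil3, which also define them, had 0 counts. The list summed to 253 to 334 CPM. Hp, a plasma protein gene of the monocyte list singled out after its values were seen, was at 12.5 TPM in replicate 1 and at 0, 0 and 0.292 in replicates 2 to 4. The part of such cells in the levels of Ms4a7, Ms4a6c and Ms4a4c was not tested. All 20 genes of the interferon response reached 1 CPM in all libraries, led by Bst2 (2521 ± 163), Ifi27l2a (319 ± 16.0) and Ifitm3 (201 ± 23.6). Their sum, 1146 to 1270 CPM, was lowest in replicate 1. Of 12 genes of fibroblasts and mural cells 7 reached 1 CPM in all libraries, led by Acta2 (83.8 ± 20.98), Tagln (28.4 ± 6.80) and Col1a1 (2.54 ± 1.10), with a sum of 81.3 to 111 CPM. Of 12 endothelial genes 4 did, led by Flt1 (17.9 ± 0.833), Slco1a4 (15.5 ± 3.28) and Kdr (6.23 ± 1.53), while Tek, Emcn and Esam had 0 counts; they summed to 105 to 136 CPM.

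No tested member showed excess spread between the libraries. Of the 10 members, 5 passed the filter on low counts (Ms4a4c, Ms4a6b, Ms4a6c, Ms4a6d and Ms4a7), and 0 of these 5 had a spread beyond that of genes of like abundance (edgeR deviance test, Benjamini-Hochberg adjusted p under 0.05 over all genes), where 143 of 12879 genes did, or 1.11%. With 5 genes tested, a count of 0 is not distinct from that background. Unadjusted p-values ran from 0.235 for Ms4a6d to 0.585 for Ms4a4c, so 0 of 5 were under 0.05, beside 6.79% of all tested genes. DESeq2 marked 0 of 8 members as dispersion outliers, beside 0.501% of 22154 genes. The observed coefficients of variation of the 4 abundant members, counting noise included, were 6.56% to 8.08%. They were well above counting noise alone (0.751% to 2.82%). The coefficients fitted for genes of their abundance, which leave counting noise out, were 6.31% to 7.98%. The observed coefficient of Ms4a4c was 19.1%, beside 11.01% from counting alone and 21.1% fitted for its abundance without counting noise. Ms4a4a did not pass the filter, and its observed coefficient was 54.6%, beside 20.6% from counting alone. In the edgeR deviance test on every gene with at least 1 count, the unadjusted p of Ms4a4a was 0.162.

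Small differences between libraries were shared by some relatives, but they were not particular to the family. Ms4a6d, Ms4a6c, Ms4a6b and Ms4a4c each lay above their mean in replicates 1 and 4 and below it in replicates 2 and 3. P2ry12 and Mrc1, outside the family, did so too, while Trem2 lay below its mean in replicates 1 and 3. For Ms4a6c the deviations were 0.09, -0.07, -0.09 and 0.07 on the log2 CPM scale in replicates 1 to 4. Ms4a7 differed in replicate 1, with deviations of -0.09, -0.01, -0.06 and 0.15. Ms4a14 had the unadjusted p nearest to the threshold among the related genes (0.0445, adjusted p = 0.692 in edgeR), with 54.6 CPM in replicate 1 and 42.5 in replicate 2. The astrocyte genes named above were lowest in replicates 1 and 4; their part in these differences was not tested.

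**Figure D4:**
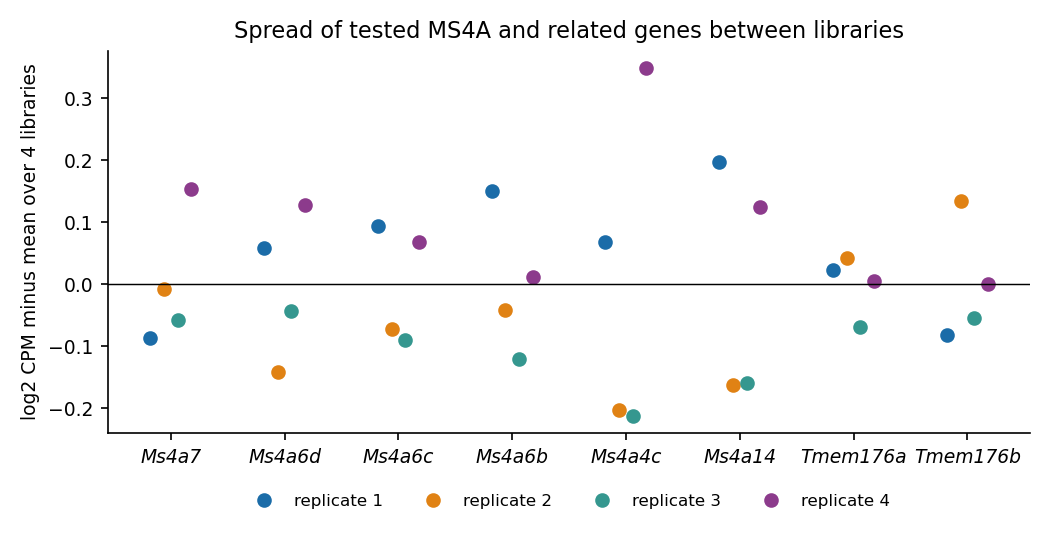
Deviation of log2 CPM from the mean of 4 libraries for the 5 tested members and 3 related genes (points coloured by replicate; the line is the mean). Among the abundant members the farthest point is Ms4a7 in replicate 4, at 0.15, and Ms4a4c in replicate 4 lies farthest out, at 0.35.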

How the data were processed

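The authors deposited raw read counts per gene symbol, 1 file for each of the 4 cultured microglia libraries. The submitters' processing notes name HTSeq 0.11.2, STAR 2.7.10a and SAMtools 1.16.1, and the build mm39 (GRCm39). The sources used here do not state the annotation release, strand setting or overlap mode; words in the names of the deposited files may refer to the last 2, unexplained. Each file's 5 summary lines held 11.8% ± 0.159 (SD, n = 4) of reads and were left out. Exon lengths came from merged exons in GENCODE M21 (GRCm38), matched for 89.95% of symbols, 512 of them through older symbols in RefSeq; 10 of 10 members matched. A count of 0 allows 3 counts, 0.105 to 0.129 CPM by library. Spread was tested in edgeR 4.0.16 (R 4.3.3) on all genes kept by filterByExpr: deviance around 1 mean, TMM scaling, trended dispersion, chi-square, Benjamini-Hochberg threshold 0.05. The test was checked on counts simulated from the model it assumes. That check does not cover genes whose dispersion departs from the trend. DESeq2 1.42.0 was an alternative. Levels and lists were described without a test. Members and lists were chosen with earlier results of these data known. Genes named were all members, their relatives, cluster neighbours within 5 genes, the 6 highest and 3 lowest TREM2 pathway genes, and the 3 highest and the defining genes at 0 of marker lists, save for some low values given only as counts and a few items not reported here. Promoters came from RefSeq GRCm38.p6. No library pair agreed within counting noise (chi-square 5.43 to 14.6 times its degrees of freedom).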

Additional observations from a re-analysis of the deposited data

Results flagged for a closer look

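In each gene below, 1 of the 4 libraries lay far from the other 3. Chance gives this in about 1 of 20 genes if values are normally distributed. A gene with counts in 1 library only is always set apart, so that rate does not hold for it. Of 78 genes that could be checked, 8 were of this kind. Some of the 78 were named because they had passed the spread test, so this share cannot be set against that rate. Hp was singled out after its values were seen. Tyrobp, the TREM2 adaptor, was lowest in replicate 1, at 802 CPM. Fcer1g, the shared signalling chain, was highest in replicate 4, at 768 CPM. Prpf19, a splicing factor gene next to the MS4A cluster, was lowest in replicate 1, at 129.7 CPM. The immediate-early genes Egr1 and Egr2 were highest in replicate 1, at 231 and 20.06 CPM. Hp was highest there too, at 5.89 CPM. Ms4a8a, with 0.0740 CPM in replicate 1, and Cd3e, with 0.0427 CPM in replicate 2, had counts in no other library, and both lie below the level of 3 counts. Of the 10 named members 8 could be checked, all but Ms4a2 and Ms4a4d with their counts of 0, and 0 were set apart in this way.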

How the results depend on the processing

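The order of the 10 members by mean level was the same with no length, with longest transcripts, with TMM scaling, with median coding transcripts and without each replicate. It changed only when Ms4a6c was divided by the exon bases no other gene overlaps, which swapped it with Ms4a6d; that setting and median coding transcripts were chosen after seeing the data. Ms4a7 held 57.3% of the summed member level, 74.1% with no length, 77.7% with median coding transcripts, 50.4% with the shorter length of Ms4a6c, and 56.6% to 58.2% without each replicate in turn. Its mean was 489 TPM with longest transcripts and 923 TPM with median coding transcripts. The number of members at 1 CPM in all libraries, 5, was 6 with a limit of 1 TPM or with 1 library sufficing, where Ms4a4a joined. The count of members with excess spread was 0 in every setting run, with 5 to 8 members tested. Over all genes the count was 143, 532 with a common dispersion and 47 to 118 without each replicate in turn, lowest without replicate 1 (47) and then without replicate 3 (52). No paired analysis was possible because there is 1 group. With 4 libraries, and 11 to 94 counts for Ms4a1, Ms4a4b and Ms4a4a, depth limits any statement on their spread.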
